A study of Mus musculus with 22 samples.

Results

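The proteasome is the protease that degrades ubiquitin-tagged proteins. Its core particle is a barrel of alpha rings and beta rings, and the beta rings carry the proteolytic sites. A regulatory particle, built of a base with ATPases and a lid, binds ubiquitin chains, removes them and unfolds the substrate. Other caps, the activators of the Psme genes, open the core without ubiquitin, and chaperones help to assemble the core and the base. Oocytes store large amounts of mRNA and protein, and degradation by the proteasome is needed for meiotic progression.

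The genes described here are the protein-coding mouse genes whose symbol is Psm, a letter from a to g and a number, with at most 1 further letter. The rule uses no measured value. It found 49 of the 52636 genes in the table, namely 7 alpha subunits and the testis-restricted Psma8, 7 beta subunits and 4 immune or thymic beta subunits, 6 ATPases and 3 other subunits of the base, 8 lid subunits, 3 chaperones of the base, 4 chaperones of the core, 5 activator genes and the inhibitor gene Psmf1.

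RNA was sequenced from pools of fully-grown germinal vesicle (GV) oocytes of C57BL/6 females, in a single-end and a paired-end run that were never joined. The single-end run, for which the labels give no ages, held 3 wild type samples, 4 of Dicer ΔMT/ΔMT (here ΔMT homozygotes), 3 of Dicer SOM/SOM (here SOM homozygotes) and 1 of Dicer ΔMT/WT. The ΔMT allele lacks the retrotransposon promoter that drives the short oocyte form of Dicer. The SOM allele, made in 1 embryonic stem cell line, encodes HA-tagged full-length Dicer without introns 2 to 6, so that the short form is not made. The paired-end run crossed SOM with DAH, an allele of the piRNA protein MILI without catalytic activity. Heterozygous controls (n = 4, aged 36, 38, 10 and 17 weeks) carried 1 copy of each allele, Dicer SOM/WT with Mili DAH/WT. RNAi mutants (n = 2, 17 and 13 weeks) were Dicer SOM/SOM with Mili DAH/WT, and double mutants (n = 4, 40, 35, 11 and 11 weeks) were Dicer SOM/SOM with Mili DAH/DAH. A single piRNA mutant, 16 weeks old, was Dicer SOM/WT with Mili DAH/DAH. Every paired-end animal, controls included, therefore had at least 1 DAH and at least 1 SOM allele. The ages are those of the labels, and the study's methods give a narrower range. The comparisons ask whether loss of the endogenous RNAi pathway, alone or together with MILI catalysis, goes with other levels of proteasome mRNAs.

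Total estimated counts were 6467844 to 90712420 in the single-end run, with the lowest in SOM-homozygote replicate 3, and 22928583 to 43540355 in the paired-end run. Dicer1 was at 1001 to 1057 CPM in wild type, at 428 to 536 CPM in ΔMT homozygotes and at 41.9 to 54.9 CPM in SOM homozygotes, and at 502 to 763 CPM in heterozygous controls against 53.2 to 62.1 CPM in RNAi and double mutants. CPM are counts scaled to library size with the factors of edgeR. The DAH change is a point mutation that a gene count does not show. The 8 oocyte markers summed to 10363 to 13561 CPM in every sample, while granulosa and leukocyte markers summed to 25.1 to 38.6 and 30.0 to 65.2 CPM, most of it from Cyp19a1 and Ms4a1. Of the oocyte markers, Mos was called lower in all 4 comparisons of a mutant group with its controls. Fewer cells of a type and less RNA per cell cannot be told apart in such pools. The ages show different females behind most paired-end libraries, whereas the labels name no separate females for the single-end samples or the 2 double mutants of 11 weeks. Where samples shared animals, p-values measure only a spread that may be technical. The rRNA-derived gene Gm42418 was above 1000 CPM in 6 of the 11 paired-end libraries and below in the other 5, and it was highest in SOM-homozygote replicates 1 and 3 of the single-end run, at 12876 and 17432 CPM.

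Several members share reads with a close copy, since the authors divided a read between all places where it mapped. In 8 members, a transcript of another gene matched 50% or more of the member's transcript with 95% identity or more. The windows of 100 bases below show the 3 pairs on which results turn. For each pair, the coding window with the most differing bases was taken, so that the windows overstate how far the pairs differ over their alignments. Each window is exon sequence of a GENCODE transcript on GRCm38, 5′ to 3′. The bases that differ between member and copy are in capitals, and the copy is written in the orientation of the member.
Psmb5: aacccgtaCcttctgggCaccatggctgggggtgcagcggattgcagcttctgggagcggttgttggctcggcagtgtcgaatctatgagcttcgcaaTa
Gm3375: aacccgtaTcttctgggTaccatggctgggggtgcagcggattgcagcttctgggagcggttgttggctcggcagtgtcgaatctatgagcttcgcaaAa
Psme2: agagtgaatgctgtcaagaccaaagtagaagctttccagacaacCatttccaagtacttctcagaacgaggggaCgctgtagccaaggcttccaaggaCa
Psme2b: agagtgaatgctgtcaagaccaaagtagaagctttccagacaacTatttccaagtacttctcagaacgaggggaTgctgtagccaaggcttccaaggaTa
Psmd11: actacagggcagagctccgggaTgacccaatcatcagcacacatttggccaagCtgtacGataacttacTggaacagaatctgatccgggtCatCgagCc
A730017L22Rik: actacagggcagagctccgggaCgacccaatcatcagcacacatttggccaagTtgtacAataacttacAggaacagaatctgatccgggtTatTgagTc

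The Psmb5 window lies in an exon at chr14:54616632-54616731 on the minus strand. The processed pseudogene Gm3375 (chr7:3181093-3181888, plus strand) was 98.9% identical to Psmb5 over 796 bases, with 9 differing positions. The Psme2 window spans an intron, at chr14:55588048-55588285 on the minus strand, and Psme2b differed from Psme2 at 5 positions over 794 bases. Psme2b is itself counted here as a member. The Psmd11 window is at chr11:80469812-80469911 on the plus strand. A730017L22Rik carries a Psmd11-like stretch in the opposite orientation, 97.9% identical over 1501 bases, with 31 differing positions. Psmd11 is the 1 member on the study's list of potential siRNA targets. Some reads of these pairs span no differing base, so that the counts of a member and its copy are uncertain. They are given side by side or added up below.

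In control oocytes, the subunit genes spanned a wide range of levels, and the highest was an activator gene rather than a subunit of the core. Levels of different genes are compared as CPM per kb of exon length. Psme3, which encodes the nuclear activator ring, was at 205 ± 10.9 CPM per kb (SD, n = 3) in wild type. It was followed by the core subunits Psma7, at 145 ± 11.2, and Psmb2, at 127 ± 2.47 CPM per kb, and the same 3 genes led in heterozygous controls, at 183 ± 20.3, 109 ± 23.1 and 93.4 ± 22.05 CPM per kb (n = 4). Psme3 exceeded Psma7 by more than both spreads in both runs, while Psma7 and Psmb2 differed by less than their SD in heterozygous controls.

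Psme4, the gene of the large single-chain activator, was also high, at 56.1 ± 5.07 CPM per kb in wild type and 69.9 ± 11.8 in heterozygous controls. The partner genes Psme1 and Psme2, whose products form the interferon-inducible activator ring, were far lower. Psme1 was at 0.992 ± 0.654 and Psme2 at 2.51 ± 0.459 CPM per kb in wild type, and they were at 1.33 ± 0.831 and 3.96 ± 1.36 CPM per kb in heterozygous controls. Psme1, Psme4 and Psmd13 were singled out after their values were seen.

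**Figure D1:**
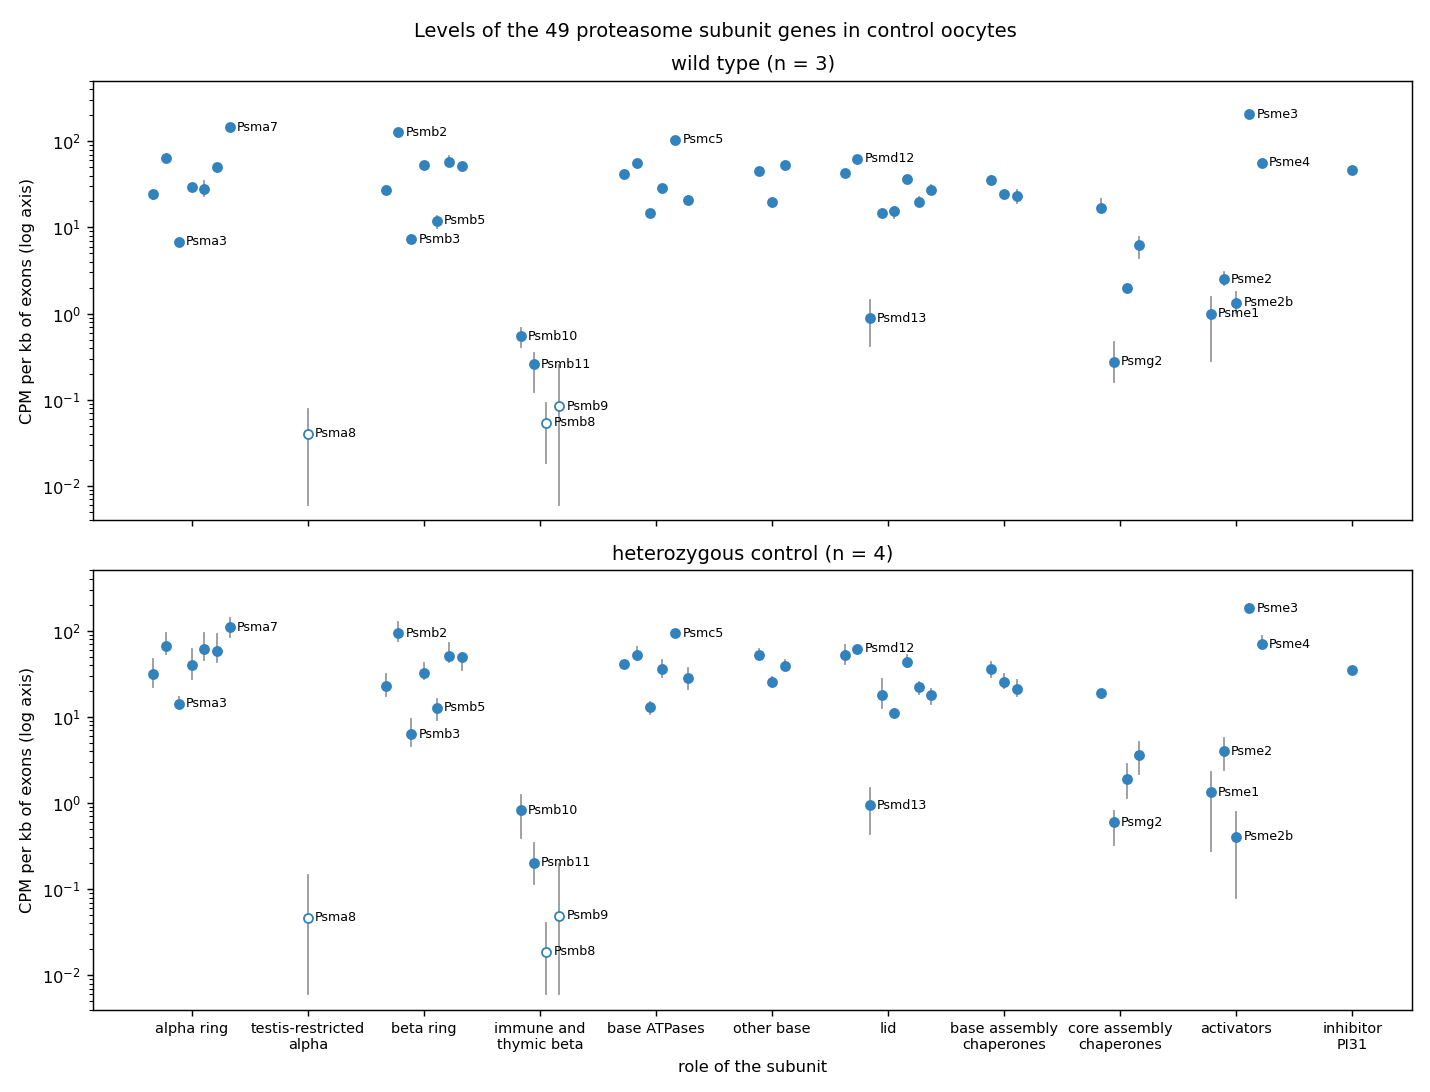
Levels of all 49 members in wild type (n = 3, single-end run) and heterozygous controls (n = 4, paired-end run), as CPM per kb of exons on a log axis, by role. Points are means and lines span the lowest to the highest sample. Open points are the 3 members under the filter on low values, and values below 0.006 are drawn at 0.006. Psme3 stands highest in both panels, and the immune, thymic and testis-restricted subunits stand low, together with Psmg2 and, in heterozygous controls, Psme2b.

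Subunits that take part in the complex in equal copies did not have equal mRNA levels. Among the 7 beta subunits, wild-type levels ran from 7.34 CPM per kb in Psmb3 to 127 CPM per kb in Psmb2, a 17.3-fold range, and Psmb5, which carries the chymotrypsin-like site, was the next lowest at 11.9 ± 1.98 CPM per kb. The 7 alpha subunits ran from Psma3, at 6.85, to Psma7, a 21.2-fold range. The 6 ATPases were closer together, from 14.8 CPM per kb in Psmc3 to 105 in Psmc5. Among the 8 lid genes, Psmd13 stood apart at 0.883 ± 0.522 CPM per kb, against 14.6 for the next lowest, Psmd14, and 63.1 for the highest, Psmd12. Psmd13 shares 293 exon bases with Sirt3 on the other strand, and the counting ignored strand. The chaperone genes of the core spanned 61.3-fold, from Psmg2, at 0.276 ± 0.164, to its partner Psmg1, at 16.9 ± 3.65 CPM per kb. Exon lengths sum all annotated exons of a gene, so that a gene whose oocyte transcript is shorter than its model is understated.

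The tissue-restricted subunits were low, and 3 of the 5 were too low to be tested. Psmb8, Psmb9 and Psmb10 replace the proteolytic subunits Psmb5, Psmb6 and Psmb7 in immune cells, Psmb11 replaces Psmb5 in the thymus, and Psma8 belongs to the core of the testis. Psma8, Psmb8 and Psmb9 did not pass the filter on low values in either run, which left 46 of the 49 members tested in each. In the single-end run, Psma8 had at most 14 counts, Psmb8 at most 9 and Psmb9 at most 21. In the paired-end run, their highest counts were 9, 8 and 8.

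Psmb9 had 0 counts in 19 of the 22 samples. A count of 0 allows up to 3 counts, or 0.0331 CPM in the deepest and 0.464 CPM in the shallowest library, a limit for counting error alone, since reads copied by PCR and not tagged per molecule are not independent. The 21 counts fell in wild type replicate 3, and Psmb9 shares 212 exon bases with Tap1 on the other strand. Psmb10 and Psmb11 passed the filter at low levels, at 0.542 ± 0.133 and 0.258 ± 0.120 CPM per kb in wild type and at 0.819 ± 0.363 and 0.203 ± 0.0960 in heterozygous controls. Psmb11, Psmg2 and Psmb10 were the 3 lowest tested members in wild type, and Psmb11, Psme2b and Psmg2 were the lowest in heterozygous controls. Of 4 pseudogenes named after beta subunits, the highest reached 1.36 CPM in any sample.

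Summed over all 49 members, the levels of the genotypes overlapped. The sum was 3362 ± 120 CPM in wild type, 3441 ± 125 in ΔMT homozygotes and 3348 ± 243 CPM in SOM homozygotes. It was 3373 ± 300 CPM in heterozygous controls and 3508 ± 418 in double mutants, which overlapped, while the RNAi mutants lay within both ranges at 3554 and 3551 CPM. Among controls and double mutants, the sum was higher in the libraries with less rRNA, while both RNAi mutants had more rRNA and sums within the range of the other libraries. The 2 double mutants with less Gm42418 had 3588 and 4054 CPM and the 2 with more had 3085 and 3304, and the controls with less had 3494 and 3728 against 3223 and 3047 with more. The part of rRNA in the members' values was not tested beyond the alternative fit given in the closing section.

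**Figure D2:**
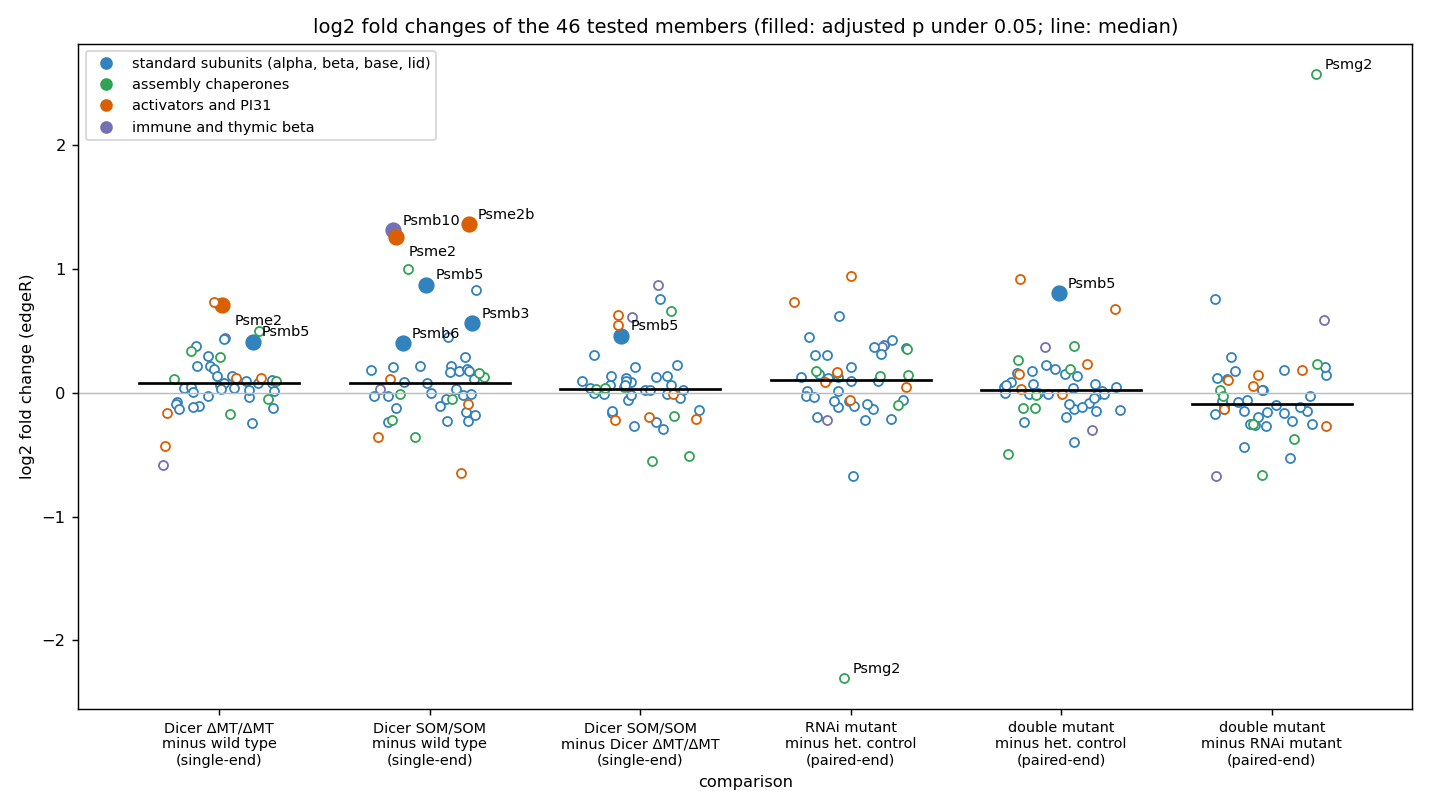
Fitted log2 fold changes of the 46 tested members in the 6 comparisons, coloured by role. Filled points passed the test at an adjusted p under 0.05 and are named, and the line is the median of the members. Medians lie between -0.09 and 0.11, all filled points lie above 0, and the far open points are Psmg2, which had few counts.

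Most members differed little between genotypes. All genes of a run were fitted together in edgeR (quasi-likelihood test, p adjusted by Benjamini-Hochberg), and the 46 members were called at an adjusted p under 0.05. Of the 31 standard subunits of the alpha and beta rings, base and lid, 31, 29 and 30 stayed within 1.5-fold in ΔMT homozygotes against wild type, SOM homozygotes against wild type and SOM homozygotes against ΔMT homozygotes. In the paired-end run, 29, 30 and 30 did so in RNAi mutants against controls, double mutants against controls and double against RNAi mutants. The median absolute log2 fold change of the 46 members was 0.12 to 0.18 over the 6 comparisons, beside 0.21 to 0.42 over all tested genes, which were not matched to the members for level. Groups without overlap were common. In the order above, 10, 14 and 10 members had no overlap in the single-end comparisons, beside 33.6%, 41.4% and 21.4% of all tested genes. In the paired-end comparisons, 9, 1 and 6 members had none, beside 34.8%, 23.3% and 14.4%.

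In ΔMT-homozygous oocytes, 2 of the 46 members rose and 0 fell. Among all 23151 genes tested, 8.06% were called higher and 7.3% lower. Before adjustment, at a p under 0.05, 8 members were higher and 0 lower, beside 15% and 14.5% of all genes. The 8 were 5 beta subunits, 2 activator genes and 1 chaperone of the core, a split by role that was not tested. Of the beta subunits, 1 was called after adjustment. DESeq2 called 4 higher and 0 lower, beside 9.44% and 9.54% of all genes. The median log2 fold change was 0.08 for the members and 0.0079 for all genes.

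In SOM-homozygous oocytes, 6 members rose and 0 fell against the same wild-type samples, where 14.5% of all genes were called higher and 14.2% lower. At a p under 0.05 before adjustment, 9 members were higher and 2 lower, beside 20% and 19.8% of all genes. DESeq2 called 6 higher and 1 lower, beside 15.3% and 15.7%. The latter was Psme3, at 539, 578 and 521 CPM in wild type and 487, 459 and 331 CPM in SOM homozygotes, with a log2 fold change of -0.36 (adjusted p = 0.0529, edgeR). The 6 called by edgeR were the beta subunits Psmb5, Psmb6 and Psmb3, the immune subunit Psmb10, and the activator genes Psme2 and Psme2b. None of the 7 tested alpha subunits, 6 ATPases, 3 other base subunits, 8 lid subunits or 7 chaperones was called in either mutant against wild type. Because the wild-type samples are shared, these comparisons are not independent of each other.

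Psmb5, the subunit with the chymotrypsin-like site, was called in 4 of the 6 comparisons. Its wild-type samples had 11.0, 8.46 and 11.8 CPM, ΔMT homozygotes had 14.1, 13.1, 14.4 and 13.8 CPM, and SOM homozygotes had 18.5, 20.6 and 18.0 CPM. The 3 groups did not overlap, and SOM homozygotes was highest. The log2 fold change was 0.41 ± 0.12 (SE) in ΔMT homozygotes (adjusted p = 0.0443, edgeR) and 0.88 ± 0.13 in SOM homozygotes (adjusted p = 0.000646, edgeR). The difference between SOM homozygotes and ΔMT homozygotes was itself called, at 0.46 ± 0.12 (adjusted p = 0.0459, edgeR).

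The call of Psmb5 in SOM homozygotes against wild type held under all 17 settings tried, with log2 fold changes of 0.75 to 0.98. These include the main fit itself, the same fit cut at 1.5-fold and fits without a ΔMT homozygote, which is not compared there. The calls in ΔMT homozygotes and between the mutants held in 7 and 6 of 17, and neither held without the filter on low counts, with a term for replicate number or at a fold of at least 1.5. The first was lost on leaving out wild type replicate 1 or 2, any of the 4 ΔMT-homozygote replicates or SOM-homozygote replicate 1, with log2 fold changes of 0.29 to 0.45. The second was lost without wild type replicate 1, any ΔMT-homozygote replicate or any SOM-homozygote replicate, at 0.39 to 0.49.

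The pseudogene Gm3375 moved with its parent. It was at 4.70 ± 0.678 CPM in wild type, 6.33 ± 0.409 in ΔMT homozygotes and 10.9 ± 1.27 in SOM homozygotes, and its log2 fold change was 1.19 ± 0.15 in SOM homozygotes against wild type (adjusted p = 0.000159, edgeR). With the counts of both genes added, the log2 fold change of Psmb5 was 0.42 in ΔMT homozygotes, 0.98 in SOM homozygotes and 0.56 between the mutants (adjusted p = 0.0298, 0.000163 and 0.0131, edgeR). Reads that fit both genes were divided between them, so that the sum does not show which gene they came from. An annotated miRNA gene, Mir686, shares 109 exon bases with Psmb5 on the same strand.

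**Figure D3:**
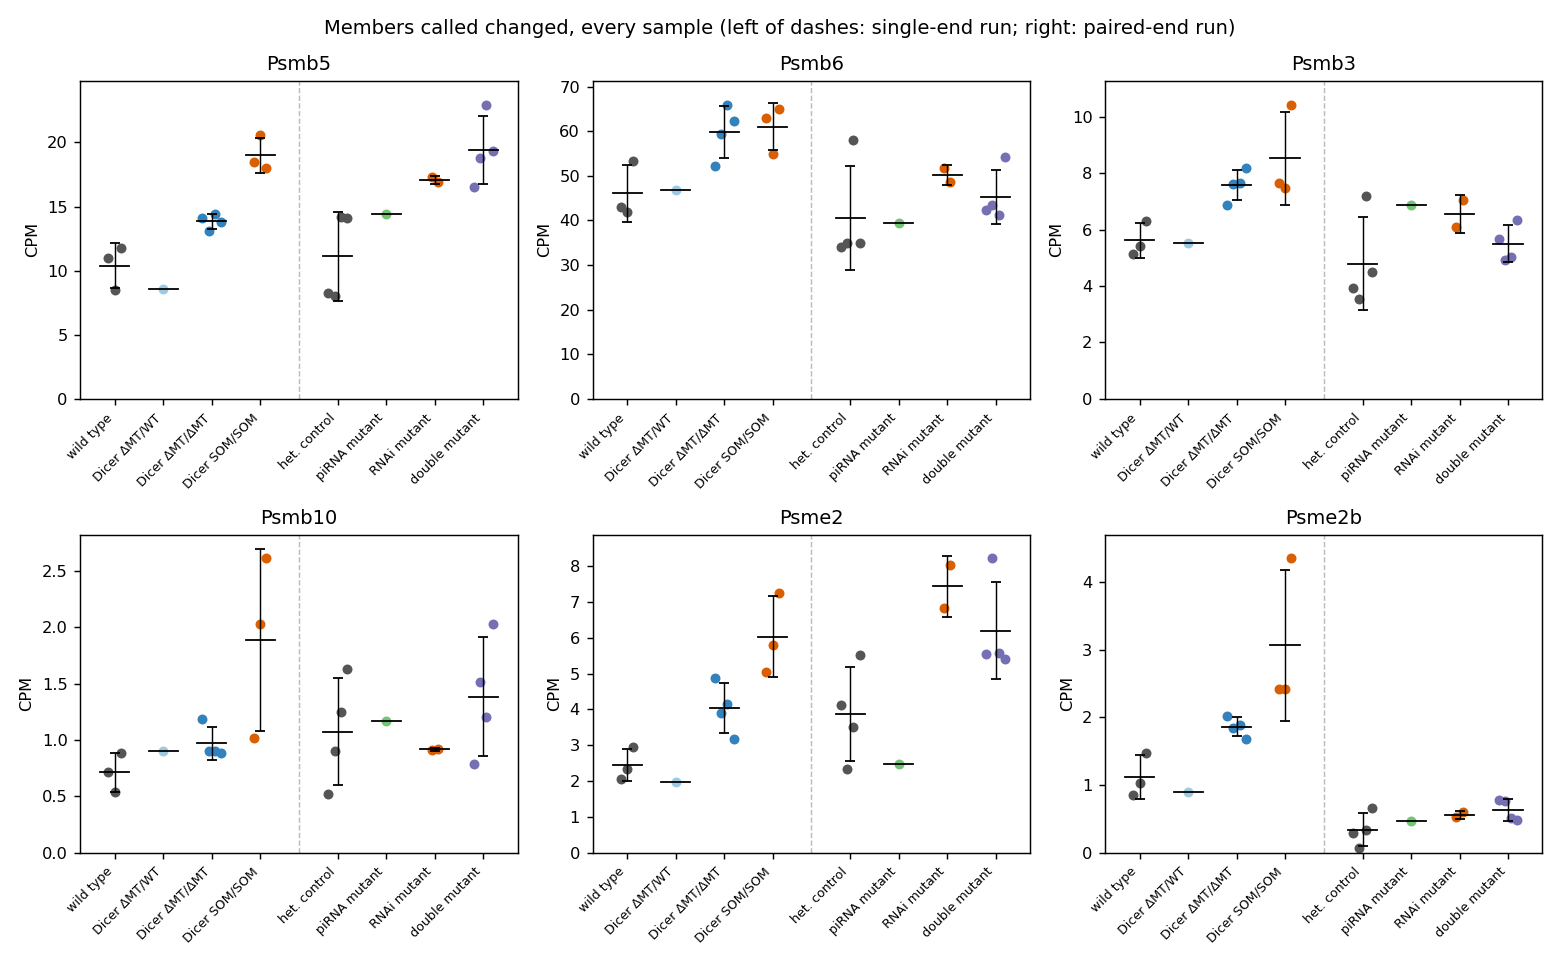
CPM of the 6 members called in at least 1 comparison, in every sample of both runs. Points are samples, long bars are means and error bars are SD, and groups of 1 sample have none. Psmb5 rises from 8.46 to 11.8 CPM in wild type to 18.0 to 20.6 CPM in SOM homozygotes and lies above all heterozygous controls in RNAi and double mutants. Psmb6, Psmb3 and Psmb10 overlap between controls and double mutants.

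The activator gene Psme2 gave a similar order. Its wild-type samples had 2.07, 2.34 and 2.94 CPM, ΔMT homozygotes had 4.88, 3.91, 4.14 and 3.18 CPM, and SOM homozygotes had 5.03, 5.80 and 7.25 CPM. No group overlapped another. Its log2 fold change was 0.71 ± 0.19 in ΔMT homozygotes (adjusted p = 0.0302, edgeR) and 1.26 ± 0.21 in SOM homozygotes (adjusted p = 0.00118, edgeR). The difference between the mutants was 0.55 ± 0.19 and was not called (adjusted p = 0.112, edgeR). In ΔMT homozygotes, the call was lost without wild type replicate 1 or 2 or ΔMT-homozygote replicate 1, 2 or 3, at log2 fold changes of 0.60 to 0.73.

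Psme2b, a near copy of Psme2, was at 0.848, 1.03 and 1.47 CPM in wild type and at 2.42, 2.42 and 4.35 CPM in SOM homozygotes. Its log2 fold change there was 1.36 ± 0.27 (adjusted p = 0.00347, edgeR). With 5 differing positions over 794 bases, the reads of the pair cannot be fully assigned. Added up, Psme2 and Psme2b rose by 1.31 in SOM homozygotes (adjusted p = 0.00106, edgeR) and by 0.72 in ΔMT homozygotes (adjusted p = 0.0314, edgeR). Psme1, the partner subunit, was not called in any comparison and scattered within groups, from 0.310 to 1.74 CPM in wild type and from 0.559 to 1.16 CPM in SOM homozygotes.

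Psmb10, the immune subunit that replaces Psmb7, had 0.714, 0.534 and 0.883 CPM in wild type and 1.01, 2.03 and 2.61 CPM in SOM homozygotes, so that the groups did not overlap. These were 48, 31 and 54 counts against 49, 129 and 18 counts. The log2 fold change was 1.31 ± 0.34 (adjusted p = 0.0137, edgeR). The call was lost without wild type replicate 2, at 1.15, and without SOM-homozygote replicate 2, at 1.16. Of the 10 interferon-response markers, 6 were tested in the single-end run and 1 was called higher in SOM homozygotes. It was Tapbp, at 1.86 ± 0.826 CPM in wild type and 3.72 ± 0.839 CPM in the mutant. The list summed to 70.9 to 75.7 CPM in wild type and to 63.0 to 74.3 CPM in SOM homozygotes. Irf1 made up much of these sums, with up to 55.7 CPM in wild type and 53.4 CPM in SOM homozygotes. Isg15, Ifit3, Irf7, Nlrc5, Tap1 and Tap2 stayed under 1 CPM in both.

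Markers of other cells were low in the same samples. Of the 8 leukocyte markers, 7 stayed under 1 CPM in wild type and 6 in SOM homozygotes, and Ms4a1 fell from 48.5 ± 1.07 to 30.9 ± 3.15 CPM. Of the 8 granulosa markers, Fshr was called higher, from 0.449 to 1.33 CPM, and Cyp19a1 lower, from 23.3 to 17.3 CPM. In double mutants the leukocyte marker Ptprc was called higher than in the controls, and Ms4a1 was lower in SOM than in ΔMT homozygotes. The part of such cells in the rise of Psmb10 and Psme2 was not tested.

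The remaining calls were small changes of beta subunits. Psmb3, a beta subunit without a proteolytic site, had 5.13, 5.41 and 6.33 CPM in wild type and 7.66, 7.49 and 10.4 CPM in SOM homozygotes, a log2 fold change of 0.56 ± 0.15 (adjusted p = 0.0192, edgeR). It shares reads with 2 pseudogenes, and with these added the value was 0.54 (adjusted p = 0.0221, edgeR). Psmb6, the subunit with the caspase-like site, had 43.1, 41.8 and 53.4 CPM in wild type and 63.0, 55.0 and 65.0 CPM in SOM homozygotes, a log2 fold change of 0.40 ± 0.13 (adjusted p = 0.0343, edgeR). Both genes had no overlap between the groups, as had 41.4% of all tested genes. The lowest mutant sample of Psmb6 exceeded the highest wild type by little.

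The Psmb3 call was lost without wild type replicate 1 or 2, at 0.50 and 0.54, and both calls were lost when only the compared groups were fitted. That of Psmb6 was lost without wild type replicate 1 or 2, ΔMT-homozygote replicate 2, or SOM-homozygote replicate 1 or 3, at 0.34 to 0.40, and without the filter on low counts, at 0.38. Without the shallow SOM-homozygote replicate 3, 5 members were called, with log2 fold changes of 0.91 for Psmb5, 1.14 for Psme2, 1.11 for Psme2b, 1.10 for Psmb10 and 0.43 for Psmb3. Psmb7, the subunit with the trypsin-like site, was not called in any comparison.

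Between the Dicer mutants of the single-end run, Psmb5 was the only member called. Against ΔMT homozygotes, 1 of 46 members rose and 0 fell in SOM homozygotes, beside 4.03% of all genes called higher and 3.32% lower. At a p under 0.05 before adjustment, 5 members were higher and 2 lower, beside 11.8% and 11.5% of all genes. DESeq2 called 7.63% of all genes higher and 7.26% lower, and of the members 1 higher, Psmb5, and 1 lower, Psmd1, the scaffold subunit of the base, which had a log2 fold change of -0.29 ± 0.09 (adjusted p = 0.0663, edgeR).

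In the paired-end run, RNAi mutants with a heterozygous Mili DAH allele showed no called member against heterozygous controls, 0 higher and 0 lower by edgeR, beside 7.07% and 3.64% of the 20989 genes tested. At a p under 0.05 before adjustment, 3 members were higher and 1 lower, beside 12.9% and 10.7% of all genes. DESeq2 called 1 member higher, Psme2, and 0 lower, beside 8.11% and 6.03%. The members with the smallest p were Psme2 and Psmg2. Psme2 had 6.83 and 8.03 CPM in the RNAi mutants and 4.13, 2.33, 3.50 and 5.51 CPM in the controls, without overlap, at a log2 fold change of 0.95 ± 0.30 (adjusted p = 0.0619, edgeR). Without heterozygous control replicate 3 it was called, at 1.16.

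Psmg2 rested on few counts, 1 and 7 in the RNAi mutants and 21, 26, 29 and 9 in the controls. Its fitted log2 fold change of -2.31 ± 0.89 (adjusted p = 0.126, edgeR) depends on the prior count. Psmb5 had 17.3 and 16.9 CPM in the RNAi mutants and at most 14.2 CPM in the controls, at a log2 fold change of 0.62 ± 0.25 (adjusted p = 0.145, edgeR). With 2 RNAi mutants, the precision of these values is low.

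In double mutants, 1 of the 46 members rose and 0 fell against heterozygous controls, beside 12.3% of all genes called higher and 8.84% lower. At a p under 0.05 before adjustment, 2 members were higher and 0 lower, beside 17.8% and 15.1% of all genes. DESeq2 called the same 2 members higher, Psmb5 and Psme2, and 0 lower, beside 13.7% and 10.6%. The member called by edgeR was Psmb5. It had 16.6, 18.8, 23.0 and 19.3 CPM in double mutants and 8.24, 8.0, 14.2 and 14.1 CPM in the controls, so that every double mutant exceeded every control. The log2 fold change was 0.80 ± 0.21 (adjusted p = 0.0133, edgeR). It was called under all 19 settings tried, from 0.68 to 0.96. These include the main fit itself, the same fit cut at 1.5-fold and fits without an RNAi mutant, which is not compared here.

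The low Psmb5 values of the controls were those of the 36 and 38 week females, and the high ones those of the 10 and 17 week females. Within the females of 35 weeks and more, double mutants had 16.6 and 18.8 CPM against 8.24 and 8.0 CPM, and within the younger ones 23.0 and 19.3 CPM against 14.2 and 14.1 CPM. With a term for age, the log2 fold change was 0.85 (adjusted p = 0.00198, edgeR). Within libraries with more rRNA, the values were 16.6 and 23.0 against 8.24 and 14.1 CPM, and with less, 18.8 and 19.3 against 8.0 and 14.2 CPM. Gm3375 was lower in this run, at 3.48 ± 0.543 CPM in double mutants and 2.39 ± 0.865 CPM in controls. With Gm3375 added, Psmb5 rose by 0.76 (adjusted p = 0.0196, edgeR). The paired-end groups share no sample with the single-end run, and Psmb5 was higher in both runs wherever both Dicer alleles were SOM. In the RNAi mutants, which were younger than the controls of 36 and 38 weeks, Psmb5 did not pass the threshold.

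Psme2 had 5.55, 8.22, 5.57 and 5.42 CPM in double mutants, which overlapped the controls, and was not called at 0.68 ± 0.25 (adjusted p = 0.0735, edgeR). Without heterozygous control replicate 3, it was called at 0.89. Psmb3, Psmb6, Psmb10 and Psme2b, the other members called in the single-end run, were not called in the paired-end run. Their log2 fold changes in double mutants were 0.20, 0.16, 0.37 and 0.92. Whether the fold changes of the runs differ was not tested.

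Double mutants against RNAi mutants compare loss of both pathways with loss of RNAi on a heterozygous Mili DAH background. No member was called, 0 higher and 0 lower by edgeR, and few genes were called at all, with 0.31% of the 20989 tested higher and 0.00476% lower. At a p under 0.05 before adjustment, 1 member was higher and 1 lower, beside 3.31% and 1.47% of all genes, and DESeq2 called 0 members in either direction, beside 0.753% and 0.0729%. The 2 members past the unadjusted threshold were Psmg2, with 22, 70, 24 and 5 counts in double mutants against 1 and 7, and the ATPase gene Psmc4. Psmc4 had 36.3, 36.9, 41.0 and 45.0 CPM in double mutants and 42.7 and 71.6 CPM in RNAi mutants, which overlapped, at a log2 fold change of -0.52 ± 0.22 (adjusted p = 0.953, edgeR). Without RNAi mutant replicate 2, the value was -0.10. Psmb5 differed by 0.18 ± 0.26 (adjusted p = 0.9997, edgeR).

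The single samples have no replicate and no test. In Dicer ΔMT/WT, 0 of the 46 tested members lay above the wild-type range by at least 2-fold from the wild-type mean and 1 lay below, beside 0.393% and 0.38% of all genes. That member was Psme1, at 0.212 CPM, or 18 counts, against 0.310 to 1.74 CPM. Psmb5 was at 8.56 CPM and Psme2 at 1.96 CPM in Dicer ΔMT/WT. In the piRNA mutant, 0 members lay outside the control range by that margin in either direction, beside 0.672% of all genes higher and 0.905% lower. Psmb5 was at 14.4 CPM in the piRNA mutant, just above the highest control, and Psme2 at 2.48 CPM.

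Psmd11, a lid subunit that braces the regulatory particle against the core, was not called in any comparison, although it is on the siRNA target list. It had 123, 128 and 129 CPM in wild type, 113, 110, 134 and 109 CPM in ΔMT homozygotes, and 118, 134 and 121 CPM in SOM homozygotes, and these groups overlapped. The log2 fold change was -0.12 to 0.09 over the 3 single-end comparisons. Its range in the paired-end run was 132 to 203 CPM in double mutants and 123 to 202 CPM in controls. The sign of these small values turned between fits, as given in the closing section.

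The antisense-like copy A730017L22Rik was called higher in double mutants, where it had 5.23, 6.14, 4.45 and 5.72 CPM against 3.30, 2.87, 3.58 and 2.52 CPM in the controls, without overlap. Its log2 fold change was 0.81 ± 0.22 (adjusted p = 0.0161, edgeR), while that of Psmd11 was 0.07 ± 0.17 (adjusted p = 0.822, edgeR). The copy's own values in the other comparisons are not reported here. With the copy added, Psmd11 was at -0.11 in ΔMT homozygotes, -0.024 in SOM homozygotes, -0.23 in RNAi mutants and 0.087 in double mutants. Each is a log2 fold change against the controls of its run (adjusted p = 0.433, 0.881, 0.556 and 0.769, edgeR).

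Transcription of subunit genes is raised by NRF1, the product of Nfe2l1, when proteasome activity falls, and NRF2, the product of Nfe2l2, acts on many of the same promoters. Both mRNAs were lower in the Dicer mutants. Nfe2l1 had 381, 396 and 343 CPM in wild type, 243, 254, 266 and 263 CPM in ΔMT homozygotes and 225, 240 and 180 CPM in SOM homozygotes, without overlap. Its log2 fold change was -0.54 ± 0.10 in ΔMT homozygotes and -0.79 ± 0.11 in SOM homozygotes (adjusted p = 0.00425 and 0.000302, edgeR). Nfe2l2 had 55.1, 44.2 and 46.4 CPM in wild type, 30.9, 28.4, 20.6 and 31.4 CPM in ΔMT homozygotes and 21.2, 23.0 and 25.5 CPM in SOM homozygotes. Both mutants lay below wild type, with log2 fold changes of -0.80 ± 0.15 and -1.07 ± 0.16 (adjusted p = 0.0041 and 0.000629, edgeR).

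In the paired-end run, Nfe2l2 had 52.7, 43.3, 45.5 and 54.5 CPM in the controls, 24.8 and 21.7 CPM in RNAi mutants and 31.5, 29.1, 25.4 and 16.3 CPM in double mutants, and both mutants lay below every control. The log2 fold change was -1.07 ± 0.24 in RNAi and -0.94 ± 0.19 in double mutants (adjusted p = 0.00893 and 0.00242, edgeR). Without either of the RNAi mutants, the first call was lost. Nfe2l1 had 366, 333, 207 and 319 CPM in the controls and 235, 195, 210 and 177 CPM in double mutants, which overlapped in the control of 10 weeks. It was called at -0.58 ± 0.16 in double mutants (adjusted p = 0.0196, edgeR), a call lost without double mutant replicate 2o or heterozygous control replicate 1o or 2o, and not in RNAi mutants at -0.42 ± 0.20 (adjusted p = 0.226, edgeR).

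**Figure D4:**
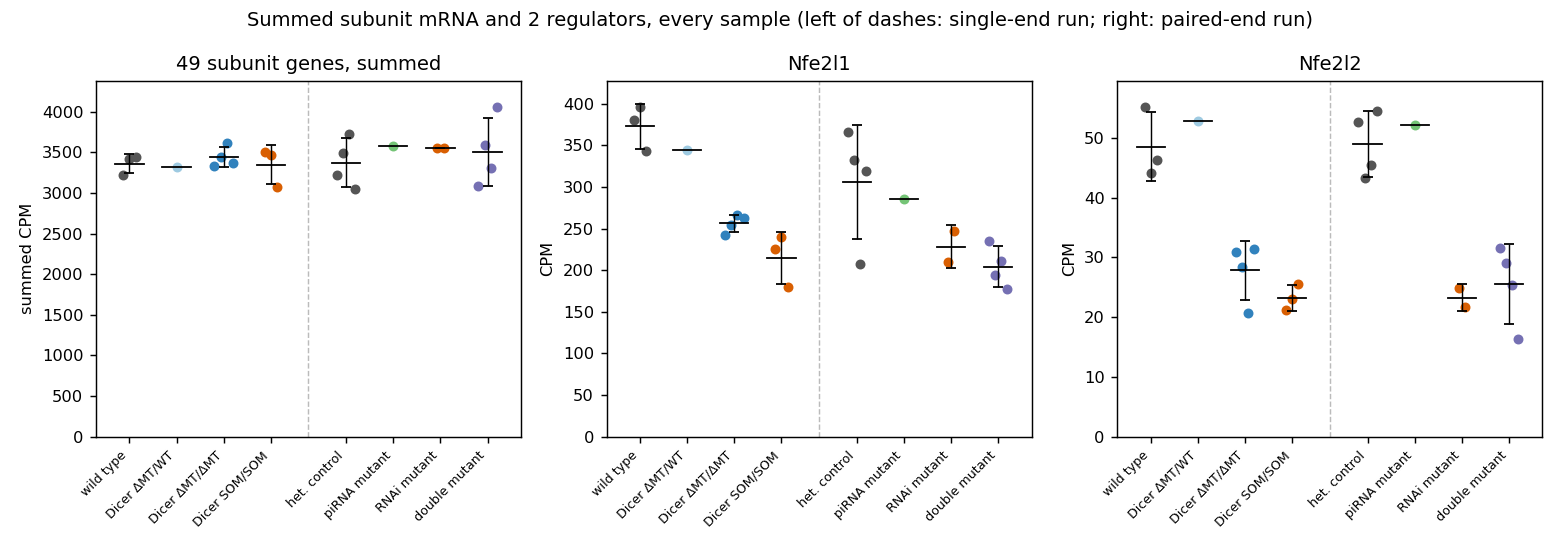
Summed CPM of the 49 members and CPM of Nfe2l1 and Nfe2l2 in every sample of both runs. Points are samples, long bars are means and error bars are SD, and groups of 1 sample have none. The sums overlap between genotypes, while Nfe2l2 lies at 43.3 to 55.1 CPM in wild type and heterozygous controls and at 16.3 to 31.5 CPM where both Dicer alleles are mutant.

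The letters TGACNNNGC, the core of the antioxidant response element at which NRF1 and NRF2 bind, were searched on both strands from 250 bases before to 50 bases after the RefSeq start of each gene. They were found in 6 of the 41 members with an entry, Psmb5, Psmb6, Psmc6, Psmd12, Psmd9 and Psme4, or 14.6%, beside 14.0% of all 27025 genes with an entry. The called members Psmb5 and Psmb6 are shown for the 100 bases before the start, from RefSeq on GRCm38.p6, 5′ to 3′, with the match in capitals.
Psmb5: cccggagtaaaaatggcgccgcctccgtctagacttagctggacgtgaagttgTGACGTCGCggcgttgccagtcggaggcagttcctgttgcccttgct
Psmb6: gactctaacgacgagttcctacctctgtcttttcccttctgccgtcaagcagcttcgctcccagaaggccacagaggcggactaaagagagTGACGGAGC
The Psmb5 stretch is chr14:54617996-54618095 on the minus strand and the Psmb6 stretch is chr11:70525257-70525356 on the plus strand. A match of letters is a description and not a binding site.

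Of 31 other genes of the ubiquitin and proteasome pathway, 30 were tested. In ΔMT homozygotes, 0 were called higher and 4 lower, beside 8.06% and 7.3% of all genes. In SOM homozygotes, 3 were higher and 6 lower, beside 14.5% and 14.2%. Between these mutants, 2 were higher and 1 lower in SOM homozygotes, beside 4.03% and 3.32%. In RNAi mutants, 0 were higher and 1 lower, beside 7.07% and 3.64%, and in double mutants, 2 were higher and 3 lower, beside 12.3% and 8.84%. Between double and RNAi mutants, 0 were higher and 0 lower by edgeR, beside 0.31% and 0.00476%.

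Besides Nfe2l1 and Nfe2l2, the calls in SOM homozygotes included genes that act before or beside the proteasome. Pomp, a chaperone of the core, fell by 0.39 on the log2 scale (adjusted p = 0.0123, edgeR). The ubiquitin ligase gene Ube3c fell by 0.59 and the shuttle factor gene Ubqln2 by 0.59, and both also fell in ΔMT homozygotes, by 0.40 and 0.37. Ubqln2 fell in double mutants too, with a log2 fold change of -0.77 ± 0.13 (adjusted p = 0.00063, edgeR).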

How the data were processed

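Libraries were prepared with the Ovation RNA-seq system from pools of GV oocytes, which the labels group by genotype. The authors aligned reads with STAR 2.5.3a to GRCm38 and deposited estimated counts per GENCODE M15 gene, with multimapping reads divided between places and strand ignored. Symbols came from GENCODE on the same build and matched 52489 of 52636 identifiers. Counts were rounded and each run was fitted apart with edgeR 4.0.16 in R 4.3.3 (TMM, glmQLFit, glmQLFTest, filterByExpr with a minimum count of 10 and total of 15, prior count 0.125), without the single Dicer ΔMT/WT sample. Benjamini-Hochberg adjustment ran over all genes tested, at 0.05. The study's methods give no test of these genes.

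Alternatives were DESeq2 1.42.0, no filter, only the compared groups, a term for replicate number or age, a fold of at least 1.5, and leaving out each sample. Chosen after seeing the values were a term for libraries above 1000 CPM of Gm42418 and the addition of copies, found with blastn 2.17.0 at 95% identity over 50% of a transcript. Of the steps, only the edgeR fit was tested on simulated counts, for Dicer SOM/SOM against wild type and double mutants against heterozygous controls. Depth was 6467844 to 90712420 counts per sample, and the shallowest, Dicer SOM/SOM replicate 3, gave the least precise values.

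Members named with values are those called, the 2 with the smallest p where none was called, those under the filter, the tissue-restricted subunits, the 3 highest and 3 lowest in each control group, and potential siRNA targets. Psme1, Psme4, Psmd13, Psme3 in Dicer SOM/SOM, Psmb7, Psmd1 and the extremes of each role were chosen after their values were seen. The members and all lists were chosen with earlier results of these data known. Values of some genes on these lists are not reported here.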

Additional observations from a re-analysis of the deposited data

Results flagged for a closer look

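Among 30 groups of 4 samples checked for the named members, 5 had 1 sample far from the others, and chance gives about 1 in 20. In Dicer ΔMT/ΔMT, replicate 1 had 1.19 CPM of Psmb10 against 0.887 to 0.906 CPM in the others. The same library had 36.5 CPM of Psmc4 against 44.7 to 45.3 CPM. Replicate 3 of that genotype had 134 CPM of Psmd11 against 109 to 113 CPM. Heterozygous control replicate 2 had 58.0 CPM of Psmb6 against 34.1 to 35.1 CPM. Double mutant replicate 2o had 8.22 CPM of Psme2 against 5.42 to 5.57 CPM. The causes were not tested.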

How the results depend on the processing

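Directions of the called members did not reverse in any fit. The number of members called in Dicer ΔMT/ΔMT against wild type was 2, and it was 4 with DESeq2, 1 without the filter, 5 with only the compared groups, 1 at 1.5-fold or more, and 0 to 5 on leaving out 1 sample. In Dicer SOM/SOM against wild type, 6 became 4 at 1.5-fold, 4 with only the compared groups, 5 without the filter, 7 with DESeq2, and 3 to 7 on leaving out 1 sample. With copies added, 5 were called, since Psme2b was then counted within Psme2 and could not be called itself. Between these mutants, 1 became 2 with DESeq2, 0 without the filter, 0 at 1.5-fold, and 0 to 1 on leaving out 1 sample. In RNAi mutants, 0 became 1 with DESeq2, 1 without the filter, 2 with the term for Gm42418 (Psmd5 and Psmd9), and 0 to 1 on leaving out 1 sample. In double mutants, 1 became 2 with DESeq2, 2 with the term for Gm42418 (Psmb5 and Psmd5), and 1 to 2 on leaving out 1 sample. The causes were not tested.

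Groups share replicate numbers, and same-numbered samples correlated at -0.02 to 0.09 in the single-end and -0.15 to 0.26 in the paired-end run. Since some pairs were below 0.1 and the labels give no shared litter or day, the numbers were not taken as pairs. Double mutants and controls of numbers 1o and 2 correlated at 0.25 and 0.26 and those of 2o at 0.065, and both samples of 1o were high and of 2o and 2 low in Gm42418. A shared preparation was not tested. With the replicate block, 2 members were called in Dicer ΔMT/ΔMT, 7 in Dicer SOM/SOM, 0 between them, 0 in RNAi mutants and 1 in double mutants. Small values changed sign. Psmd11 was at -0.0044 in double mutants under the replicate block, and at -0.051 without double mutant replicate 2 and -0.029 without heterozygous control replicate 3, within a range up to 0.22 on leaving out 1 sample. It ran from -0.090 to 0.0076 in Dicer SOM/SOM on leaving out 1 sample, the latter without replicate 1, and at 0.031 in RNAi mutants with the term for Gm42418. Nfe2l2 between double and RNAi mutants was at -0.043 under the replicate block.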
